A study of Mus musculus with 20 samples.

Results

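The MiT/TFE genes Mitf, Tfe3, Tfeb and Tfec encode a family of basic helix-loop-helix leucine-zipper transcription factors. The family was taken by gene name, which gave 4 of the 29956 genes in the deposited tables. Of the 13541 genes that passed a filter on low counts and could be tested, 3 were family members, since Tfec did not pass. That Mitf and Tfe3 part between the hairpins against Hira was known when the family was chosen, so that difference is described below without a test. The intervals given for it show its size and are not offered as a test.

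The study measured poly(A) RNA of melb-a, an immortal line of mouse melanoblasts of wild-type genotype, grown in 10% serum with 10 ng/ml SCF and 40 pM Fgf2. Of its 5 groups of 4 libraries, parental cells had met no virus and shLuciferase and shScramble cells carried control hairpins. The remaining groups, labelled shHIRA I and shHIRA II, carried hairpins against Hira, a gene for a chaperone that places the histone variant H3.3. The 16 transduced cultures had 16 h of lentivirus with 8 µg/ml polybrene and then selection in 1 µg/ml puromycin. All 20 libraries come from 1 cell line, and p-values measure the spread between the replicate cultures that the design text calls independent. The 8 libraries of both control hairpins served together as the control for each Hira hairpin, and these comparisons therefore share their controls.

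MITF is the master regulator of the melanocyte lineage and binds an E-box flanked by T, the M-box, in promoters of pigment genes. TFEB, TFE3 and MITF bind related sites, called CLEAR elements, at genes of lysosomes and autophagy. The proteins bind DNA as dimers with each other, and mTORC1 at the lysosome, with the Rag GTPases and folliculin, holds TFEB and TFE3 in the cytoplasm when nutrients are plentiful. TFEC is known mainly from macrophages and osteoclasts. Transcripts, which are what was measured here, do not report on that control of the proteins.

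On GRCm38 (mm10), Mitf lay on chromosome 6 at 97807052 to 98021349 on the plus strand (ENSMUSG00000035158.15), with 8 annotated transcripts and a processed pseudogene, Gm15531, inside it on the other strand. Tfec lay on the same chromosome at 16833373 to 16898441 on the minus strand (ENSMUSG00000029553.10). Tfe3 lay on chromosome X at 7762560 to 7775202 (ENSMUSG00000000134.17) and Tfeb on chromosome 17 at 47737030 to 47792419 (ENSMUSG00000023990.18), both on the plus strand. The members shared no stretch of 31 bases with each other in their annotated transcripts, and at most 0.176% of such stretches, in Mitf, occurred in any other gene. Each gene value sums over its isoforms, so the melanocyte form of Mitf, which starts at the most downstream of its promoters, could not be separated from the others.

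Promoter windows of 300 bases, 250 before and 50 after each RefSeq start site on GRCm38.p6, were read for all 4 members, 9 windows in total. They were searched on both strands for the E-box CACGTG, the CLEAR core TCACGTG and the M-box core TCATGTG. The same search covered the cAMP response element (CRE) TGACGTCA and the LEF/TCF site CTTTGAT. Every CLEAR core contains the E-box. Of the 9 windows, the third Mitf window alone held any of these motifs, and it is shown because it is the start of the melanocyte form. Below it stand the promoter of Tyr, the tyrosinase gene and textbook M-box target, and that of Mcoln1, which encodes a lysosomal calcium channel and is a textbook CLEAR target. The first Tfe3 window is shown as a member with no match. Capitals mark the motifs, and each sequence runs 5′ to 3′ on the gene's strand.
Mitf, chr6:97991533-97991832, plus strand: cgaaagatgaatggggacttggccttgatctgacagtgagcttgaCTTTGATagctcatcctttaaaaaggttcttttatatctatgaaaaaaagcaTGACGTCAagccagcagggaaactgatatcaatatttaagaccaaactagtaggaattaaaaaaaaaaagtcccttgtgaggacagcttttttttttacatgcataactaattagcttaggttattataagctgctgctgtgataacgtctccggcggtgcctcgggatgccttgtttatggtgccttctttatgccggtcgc
Tyr, chr7:87493463-87493762, minus strand: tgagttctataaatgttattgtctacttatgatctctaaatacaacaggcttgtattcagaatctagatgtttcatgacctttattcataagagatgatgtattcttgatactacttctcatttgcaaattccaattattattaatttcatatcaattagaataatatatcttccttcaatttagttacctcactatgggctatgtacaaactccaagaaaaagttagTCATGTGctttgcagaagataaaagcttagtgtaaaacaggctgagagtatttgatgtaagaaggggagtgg
Mcoln1, chr8:3500269-3500568, plus strand: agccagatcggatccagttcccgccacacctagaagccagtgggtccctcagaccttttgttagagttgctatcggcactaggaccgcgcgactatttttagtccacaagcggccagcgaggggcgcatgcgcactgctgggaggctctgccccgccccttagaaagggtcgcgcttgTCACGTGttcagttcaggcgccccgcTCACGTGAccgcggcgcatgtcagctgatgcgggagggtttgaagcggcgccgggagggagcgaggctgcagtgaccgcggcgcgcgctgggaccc
Tfe3, chrX:7762411-7762710, plus strand: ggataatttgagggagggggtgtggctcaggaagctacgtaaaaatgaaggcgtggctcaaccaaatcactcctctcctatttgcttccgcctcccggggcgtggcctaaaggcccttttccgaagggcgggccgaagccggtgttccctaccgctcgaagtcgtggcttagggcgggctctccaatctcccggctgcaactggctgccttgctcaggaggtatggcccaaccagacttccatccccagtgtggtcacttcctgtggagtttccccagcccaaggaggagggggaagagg

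In the Mitf window the CRE began at -153 and the LEF/TCF site at -205 from the start site. The Tyr window held 1 M-box core at -22, and that of Mcoln1 held E-boxes at -71 and -45, both within CLEAR cores. Over all 32851 RefSeq promoter windows of this length, the CRE was present in 1.79%, the LEF/TCF site in 3.73%, the M-box core in 3.77%, the CLEAR core in 3.77% and the E-box in 7.15%. A match describes these letters and is not evidence of binding.

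Library totals ran from 15.0 to 20.7 M estimated counts (M, 1e+06). Hira was lower with shHIRA I, by 1.05 on the log2 scale (a log2 fold change of -1.05, SE 0.14, adjusted p = 5.15e-05, edgeR quasi-likelihood test). No fall was detectable in shHIRA II-labelled libraries (-0.19 on the same scale, SE 0.14, adjusted p = 0.306), and a direction drawn from them cannot be tied to a lower Hira transcript. Mitochondrial mRNA made up 1.23% of counts in shHIRA I replicate 3, 2.88% in shHIRA II replicate 2 and between 4.45% and 9.96% in the other libraries. Of the 7 melanoblast markers, Mitf, Pax3, Kit, Dct and Pmel were above 1 TPM in every library, Sox10 was under 1 TPM in 16 of 20 and Ednrb in all 20. The melanoblast label therefore rests on the other 5. Between shScramble and shLuciferase 0 genes were called (0%) by edgeR; 170 had an unadjusted p under 0.05 and DESeq2 called 4. All adjusted p-values below are from edgeR's quasi-likelihood test with Benjamini-Hochberg adjustment over the 13541 genes, a call is an adjusted p under 0.05, and levels are CPM, counts per 1e+06 counts after TMM scaling, unless TPM is named.

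Mitf was the most abundant member per length and the one that fell furthest. In parental cells its level was 586, 754, 700 and 662 CPM. It was 573, 645, 527 and 565 CPM with shLuciferase and 533, 604, 471 and 568 CPM with shScramble. The groups without a Hira hairpin overlapped, and control cells did not differ detectably from parental cells (log2 fold change -0.27, SE 0.20, adjusted p = 0.541, where 3.62% of all tested genes were called).

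With shHIRA I the 4 libraries held 308, 458, 212 and 579 CPM of Mitf, and those labelled shHIRA II held 105, 153, 203 and 142 CPM. Replicate 4 of shHIRA I stood among the controls while its other 3 libraries were below all 8 of them. Every library labelled shHIRA II lay below every control, every parental and every shHIRA I library. How many of all tested genes part in this way was not counted. Gaps between groups, here and below, therefore describe the levels only. Against the controls Mitf fell to 26.9% in shHIRA II-labelled libraries (19.5% to 37.1% at 95% confidence; log2 fold change -1.90 with an SE of 0.22, adjusted p = 8.80e-06), a comparison in which 32.4% of genes were called. With shHIRA I it stood at 69.4% (51.5% to 93.7%; log2 fold change -0.53 with an SE of 0.21, adjusted p = 0.0809) and was not called, where 19.7% of genes were. Leaving out shHIRA I replicate 4 gave a log2 fold change of -0.78 and an adjusted p of 0.0127; without replicate 3 the log2 fold change was -0.33.

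Both hairpin groups lay below the 4 parental libraries without overlap in Mitf, shHIRA I narrowly (highest 579 CPM, against a lowest parental level of 586 CPM). Of the 8 control libraries, 6 also lay below all parental ones. Against parental cells Mitf fell with shHIRA I to 57.6% (log2 fold change -0.80, SE 0.23, adjusted p = 0.0250, 16.8% of genes called) and in shHIRA II-labelled libraries to 22.3% (log2 fold change -2.16, SE 0.24, adjusted p = 7.17e-06, 29.3% called). The shHIRA I call against parental cells was lost without parental replicate 2 or 3 or shHIRA I replicate 1. Between the hairpins, Mitf in shHIRA II-labelled libraries stood at 38.7% of its shHIRA I level (95% interval 27.4% to 54.6%, log2 fold change -1.37, SE 0.24), in a comparison in which 21% of genes were called. In order of mean level, Mitf ran from parental (676 ± 70.5 CPM, SD, n = 4) through shLuciferase (578 ± 49.5), shScramble (544 ± 56.9) and shHIRA I (389 ± 162) to shHIRA II (151 ± 40.5). Of neighbours in that order, shLuciferase and shScramble, and shScramble and shHIRA I, differed by less than the larger of their SDs.

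**Figure D1:**
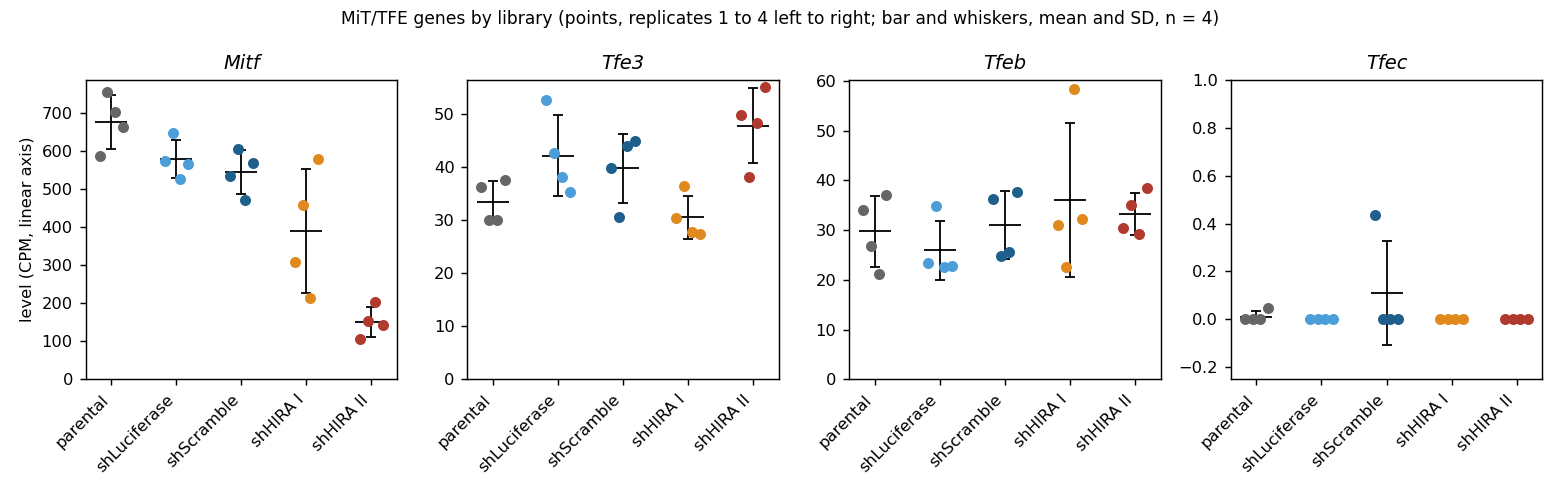
Level of each MiT/TFE gene (CPM, linear axis, own scale per panel) in the 20 libraries by group, with points for replicates 1 to 4 from left to right and the bar and whiskers for mean and SD (n = 4). Mitf in shHIRA II-labelled libraries sits between 105 and 203 CPM, under all others; Tfe3 there sits above all shHIRA I libraries; shHIRA I replicate 3 is the highest Tfeb library; and Tfec is above 0 in 2 libraries.

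Tfe3, a ubiquitous member of the family, did not follow Mitf in shHIRA II-labelled libraries. With shHIRA I both stood lower than in the controls (log2 fold change -0.53 for Mitf, not called, and -0.42 for Tfe3). The level of Tfe3 was 36.1, 30.1, 30.0 and 37.6 CPM in parental cells, 52.5, 42.5, 38.1 and 35.2 CPM with shLuciferase and 39.8, 30.5, 43.8 and 44.8 CPM with shScramble. With shHIRA I it was 30.4, 36.3, 27.8 and 27.4 CPM, and in shHIRA II-labelled libraries 49.7, 38.1, 48.2 and 55.0 CPM. The hairpin groups did not overlap, those labelled shHIRA II being higher, and each overlapped the controls.

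Against the controls Tfe3 fell with shHIRA I to 74.5% (60.5% to 91.8%; log2 fold change -0.42 with an SE of 0.14, adjusted p = 0.0442). This call sat at the threshold: it was lost in 16 of 31 alternative analyses, among them the omission of any of 8 single libraries, with adjusted p between 0.0207 and 0.288 over all alternatives. Those 8 were replicates 1 and 2 of shLuciferase, 1, 3 and 4 of shScramble and 1, 3 and 4 of shHIRA I. In shHIRA II-labelled libraries, Tfe3 stood at 117% of control (95.3% to 143%, log2 fold change 0.22, SE 0.14, adjusted p = 0.233), which was not a detectable difference.

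Between the hairpins, Tfe3 in shHIRA II-labelled libraries stood at 157% of its shHIRA I level (124% to 199%, log2 fold change 0.65, SE 0.16). Against parental cells it rose in shHIRA II-labelled libraries to 143% (log2 fold change 0.51, SE 0.16, adjusted p = 0.0235), and there the groups did not overlap; without parental replicate 2 or 3 or shHIRA II replicate 4 the call was lost. With shHIRA I it did not differ detectably from parental cells (log2 fold change -0.13, SE 0.16, adjusted p = 0.636). Nor did control cells (log2 fold change 0.29, SE 0.14, adjusted p = 0.307), although 6 of 8 control libraries lay above all parental ones. By mean level Tfe3 ran from shHIRA I (30.5 ± 4.11 CPM, SD, n = 4) through parental (33.4 ± 3.97), shScramble (39.7 ± 6.53) and shLuciferase (42.1 ± 7.59) to shHIRA II (47.7 ± 7.06). Each pair of neighbours in that order differed by less than the larger of their SDs.

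Tfeb, the member best known as a regulator of lysosome formation, passed the test in none of the 7 comparisons. Its level was 34.0, 26.8, 21.1 and 37.1 CPM in parental cells, 23.4, 34.9, 22.6 and 22.7 CPM with shLuciferase and 36.2, 24.8, 25.7 and 37.7 CPM with shScramble. With shHIRA I it was 31.1, 22.5, 58.3 and 32.2 CPM, and in shHIRA II-labelled libraries 30.4, 35.0, 29.2 and 38.5 CPM. All groups overlapped, and shHIRA I replicate 3 stood far above every other library.

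For Tfeb the log2 fold change against the controls was 0.34 with shHIRA I (SE 0.22, adjusted p = 0.292; 127% of control, 95% interval 92.7% to 173%) and 0.23 in shHIRA II-labelled libraries (SE 0.22, adjusted p = 0.444; 117%, 85.6% to 161%). Between the hairpins it was -0.11 (SE 0.25, adjusted p = 0.796), and it turned to 0.20 without shHIRA I replicate 3. With the mitochondrial mRNA share as a covariate the values against the controls turned to -0.05 and -0.27. The intervals allow a rise or a modest fall, so a lack of response is not shown. By mean level Tfeb ran from shLuciferase (25.9 ± 5.98 CPM, SD, n = 4) through parental (29.7 ± 7.20), shScramble (31.1 ± 6.82) and shHIRA II (33.3 ± 4.26) to shHIRA I (36.0 ± 15.5), and no neighbours in that order differed by more than their SD.

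Tfec was listed at 0 in 18 of 20 libraries. Parental replicate 4 held an estimated count of 0.995 and shScramble replicate 1 of 7.97, the latter 0.434 CPM. A floor of 3 counts corresponds to between 0.145 and 0.201 CPM per library, a limit for counting error only. A two-sided exact permutation test on TPM gave p = 1 in each of the 6 comparisons with any value above 0. With at most 2 libraries above 0, this test could not have given a p under 0.05, so no conclusion is drawn from it. The macrophage and osteoclast markers, the cell types in which Tfec is best known, summed to between 1.30 and 5.38 TPM in every library.

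**Figure D2:**
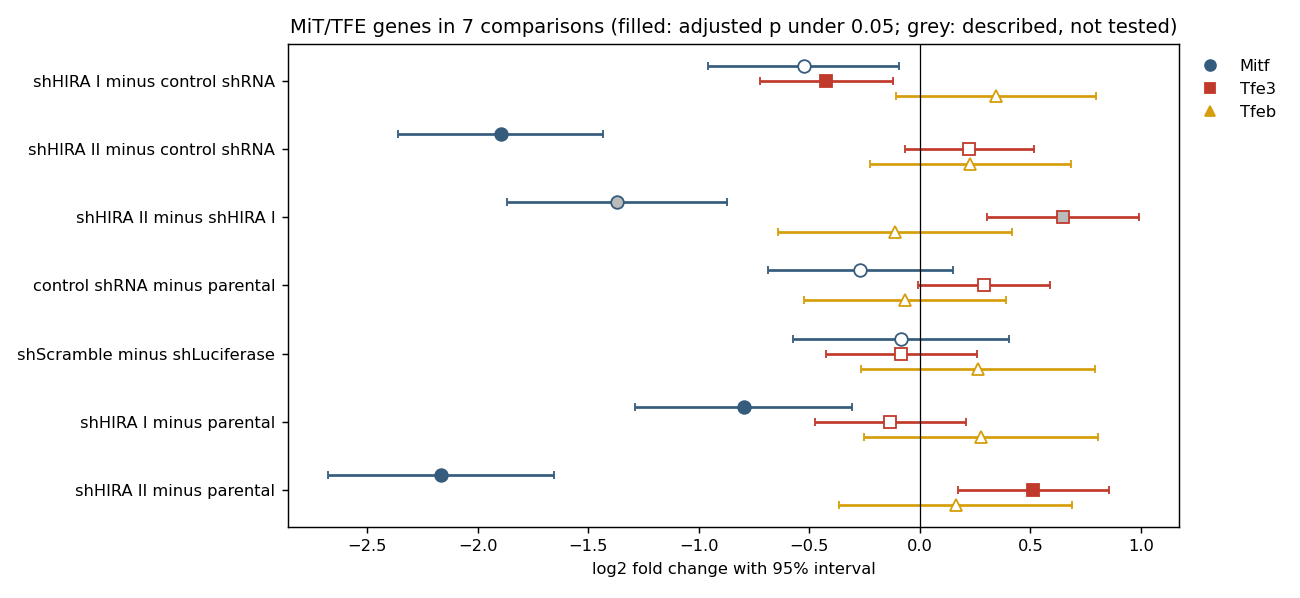
Log2 fold change of Mitf (circles), Tfe3 (squares) and Tfeb (triangles) in each of the 7 comparisons, with 95% intervals from the fit over 20 libraries and filled symbols for an adjusted p under 0.05. Grey symbols mark the difference between hairpins that was known when the family was chosen; Mitf lies at -1.90 and Tfe3 at 0.22 for shHIRA II-labelled libraries against the controls, and every Tfeb interval crosses 0.

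Levels of different genes can be compared only per length, in TPM. On that scale Mitf made up 83.0% ± 3.86 (SD, n = 4) of the family's summed transcripts in parental cells, Tfeb 10.3% ± 2.81 and Tfe3 6.73% ± 1.11. The family sum was 185 ± 25.5 TPM in parental cells, 178 ± 18.5 with shLuciferase and 161 ± 14.9 with shScramble. It was 142 ± 45.6 TPM with shHIRA I and 82.1 ± 16.5 in shHIRA II-labelled libraries.

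The make-up of the family shifted with that sum. The Mitf share was 80.5% ± 1.48 with shLuciferase, 78.1% ± 3.64 with shScramble and 70.0% ± 14.0 with shHIRA I. In shHIRA II-labelled libraries it was 46.4% ± 7.65, with Tfeb at 29.2% ± 4.51 and Tfe3 at 24.4% ± 4.56. As parts of 1 sum, the shares of Tfeb and Tfe3 go up when Mitf alone falls. Neither gene differed detectably from the controls in shHIRA II-labelled libraries (log2 fold changes 0.23 and 0.22). The Mitf share there, 38.8% to 56.0%, did not overlap that of any control or parental library, whose lowest was 76.1%, but it overlapped shHIRA I, whose lowest library, replicate 3, was at 50.5%.

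The ratio of Mitf to Tfe3 transcripts was 12.7 ± 2.64 (SD, n = 4) in parental cells, 8.62 ± 1.39 with shLuciferase and 8.72 ± 2.43 with shScramble. It was 7.93 ± 3.61 with shHIRA I and 1.99 ± 0.640 in shHIRA II-labelled libraries. The ratio of Mitf to Tfeb ran from 8.64 ± 2.82 in parental cells to 1.65 ± 0.576 in shHIRA II-labelled libraries. By mean TPM Mitf ranked 804th of 18748 genes above 0 in parental cells and 3359th of 20538 in shHIRA II-labelled libraries.

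**Figure D3:**
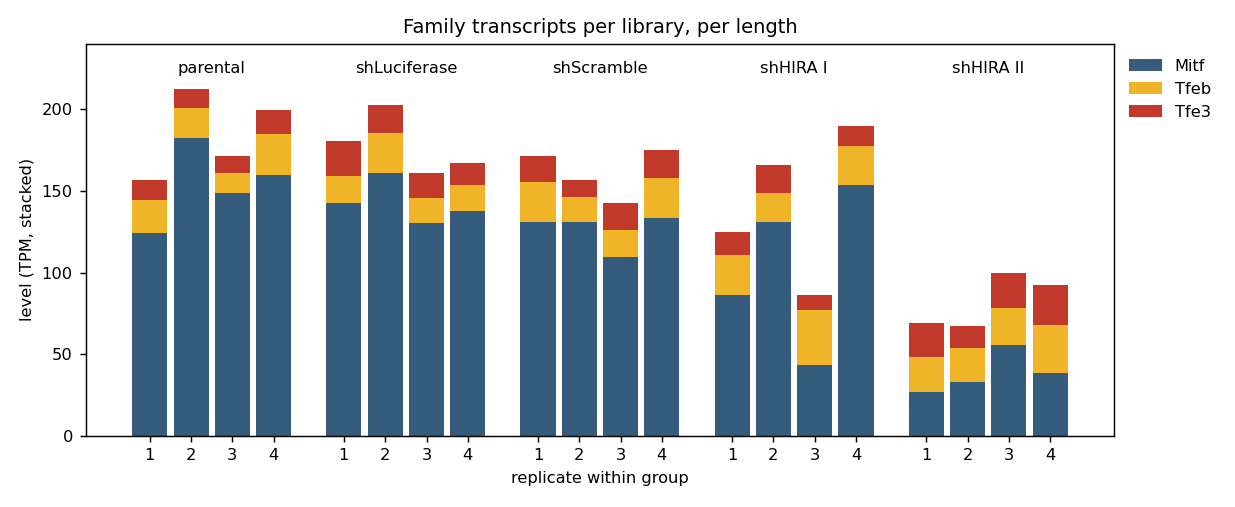
Level per length (TPM, stacked from 0) of Mitf, Tfeb and Tfe3 in each of the 20 libraries; Tfec, at most 0.296 TPM, is left out. Mitf is 76.1% or more of the bar in parental and control libraries and between 38.8% and 56.0% in those labelled shHIRA II.

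The mitochondrial mRNA share differed between the groups too. It averaged 7.17% of counts in parental cells, 7.98% with shLuciferase, 8.23% with shScramble, 5.70% with shHIRA I and 4.19% in shHIRA II-labelled libraries. In shHIRA I, the library of lowest share, replicate 3, had the lowest Mitf and the highest Tfeb of its group. That of highest share, replicate 2 at 9.58%, held 458 CPM of Mitf, and replicate 4 held 579 CPM. Among shHIRA II-labelled libraries Mitf was 153 CPM in that of lowest share, replicate 2, and 105, 203 and 142 CPM in the others. All shHIRA II-labelled libraries (2.88% to 4.71%) lay below all control libraries in share (shLuciferase 6.43% to 9.96%, shScramble 7.28% to 9.75%). Share and hairpin therefore cannot be told apart there. With this share as a covariate the Mitf log2 fold change in shHIRA II-labelled libraries was -1.45, and its adjusted p was 0.000465. Without the 2 libraries of lowest share it was -1.90. Under the covariate Tfe3 with shHIRA I was at -0.37 (adjusted p = 0.0996).

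**Figure D4:**
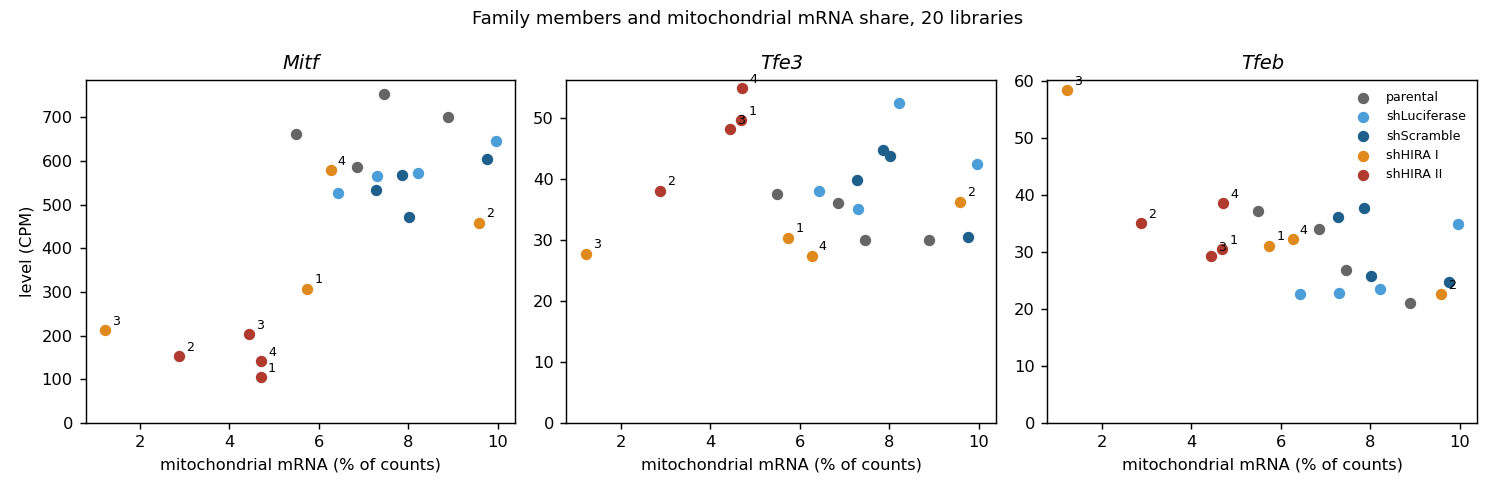
Level (CPM) of Mitf, Tfe3 and Tfeb against the share of counts from mitochondrial mRNA in each of the 20 libraries, coloured by group, with replicate numbers on the Hira hairpin libraries. The share is 1.23% in shHIRA I replicate 3, which has 212 CPM of Mitf and 58.3 CPM of Tfeb; the 4 libraries with the shHIRA II label lie between 2.88% and 4.71%.

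Genes around the family were read as 9 lists of 211 genes, of which 198 could be tested. Upstream of Mitf stand the transcription factors and receptors known to act on it. Of the 21 regulators tested, 8 fell and 2 rose with shHIRA I (median log2 fold change -0.22 against 0.05 over all genes), and 10 fell and 0 rose in shHIRA II-labelled libraries (-0.77 against 0.02). Between control and parental cells 1 fell.

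Pax3 and Sox10 bind the melanocyte promoter of Mitf directly. Pax3 was not called with either hairpin (log2 fold changes 0.09 and -0.26, adjusted p = 0.687 and 0.151). Sox10 ranged from 0 to 29.8 CPM, with 4 libraries above 1 TPM, parental replicate 3, shScramble replicates 1 and 2 and shHIRA I replicate 1, and gave log2 fold changes of -0.31 and -1.38 with SEs of 1.91 and 1.76. In its transcripts 0.822% of 31-base stretches were shared with other genes.

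The factors of the motifs in the Mitf window went separate ways. Creb1, which encodes a CRE-binding protein, was not called (log2 fold changes -0.22 and 0.01, adjusted p = 0.340 and 0.966). Lef1, a partner of β-catenin at LEF/TCF sites, rose with shHIRA I (0.99, SE 0.25, adjusted p = 0.00857) and not detectably in shHIRA II-labelled libraries (0.13, SE 0.26, adjusted p = 0.735). Ctnnb1, which encodes β-catenin, fell with both (-0.58, adjusted p = 0.00979, and -0.84, adjusted p = 0.000448).

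Kit, the SCF receptor, whose signal acts on the MITF protein, fell with both hairpins. It ranged from 365 to 553 CPM in the 8 controls. With shHIRA I it was 165, 236, 92.4 and 363 CPM, and in shHIRA II-labelled libraries 52.1, 66.9, 147 and 86.6 CPM, each below all 8 controls. Its log2 fold changes were -1.09 (SE 0.30, adjusted p = 0.0128) and -2.37 (SE 0.32, adjusted p = 2.85e-05). As for Mitf, the highest shHIRA I library was replicate 4 and the lowest replicate 3. Foxd3, a neural crest factor that holds Mitf down, fell in both (-0.82 and -1.56), as did Irf4 (-1.40 and -1.54), Bhlhe40 (-1.19 and -1.23) and Ets1 (-1.08 and -0.77).

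Of the 29 melanocyte MITF targets tested, 14 fell and 3 rose with shHIRA I, and 19 fell and 0 rose in shHIRA II-labelled libraries, with medians of -0.72 and -1.32. Without the 2 libraries of lowest mitochondrial share 15 and 20 were called. Tyr fell by 2.73 with shHIRA I (SE 0.47, adjusted p = 0.000444) and by 4.78 in shHIRA II-labelled libraries (SE 0.54, adjusted p = 6.05e-06), both on the log2 scale. Dct, the dopachrome tautomerase gene, fell by 2.51 and 2.72 (SE 0.30 and 0.31), and Pmel, of the melanosome fibril, by 1.65 and 3.40 (SE 0.32 and 0.36). Rab27a, Slc24a5 and Tspan10 fell with both, the first of these by 1.51 and 2.42. Rab38 fell by 1.75 with shHIRA I and by 1.01 in shHIRA II-labelled libraries. The 3 targets that rose with shHIRA I were Bcl2 (1.13), Dicer1 (1.02) and Gpnmb (0.55). In shHIRA II-labelled libraries Gpnmb fell (-0.97), while Bcl2 (-0.03) and Dicer1 (-0.48) were not called. Tyrp1 and Mlana were not called with shHIRA I (-1.05 and -0.59, adjusted p = 0.0866 and 0.0556, edgeR). Both fell in shHIRA II-labelled libraries (-3.77 and -1.32).

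The order of the shHIRA I libraries in Dct, Tyr and Pmel was not that of Mitf, whose lowest was replicate 3; in these pigment genes it was replicate 1. In shHIRA II-labelled libraries Tyr and Pmel were lowest in replicate 1 and highest in replicate 3, as Mitf was. Dct was 71.7, 217, 196 and 264 CPM with shHIRA I and 131, 205, 178 and 130 CPM in shHIRA II-labelled libraries, so that the hairpin groups overlapped in Dct though not in Mitf; the controls ran from 709 to 1406 CPM. In shHIRA I replicate 4, where Mitf stood among the controls, Dct was 264 CPM, Tyr 31.2 CPM and Pmel 56.9 CPM, each below all 8 controls. Tyr was 33.3, 33.8, 38.8 and 31.3 CPM in parental cells, where Mitf was highest, and 51.1 to 309 CPM in the controls. Between control and parental cells 1 of the 29 targets was called (3.45%, against 3.62% of all tested genes). The summed melanoblast markers, Mitf among them, ran from 710 to 826 TPM in parental cells, 756 to 1138 in the controls, 221 to 505 with shHIRA I and 156 to 273 in shHIRA II-labelled libraries. In bulk RNA, fewer cells of a type and less RNA per cell cannot be told apart.

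Markers of other cells moved too. Fibroblast markers, 5 of 5 with a row, summed to 20.4 to 39.9 TPM in the controls, 50.1 to 110 with shHIRA I and 5.06 to 10.9 in shHIRA II-labelled libraries, above all controls with the one hairpin and below them with the other. Schwann cell markers summed to 96.8 to 151 TPM in the controls, 46.2 to 111 with shHIRA I and 55.0 to 78.3 in shHIRA II-labelled libraries. Keratinocyte markers summed to 6.78 to 7.56 TPM in parental cells, 5.10 to 9.75 in the controls, 3.20 to 7.88 with shHIRA I and 2.42 to 3.69 in shHIRA II-labelled libraries, the last below every control and parental library, with Krt5 at 0 in all parental and shLuciferase libraries. The part of these markers in the family's values was not tested.

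The lysosomal CLEAR genes parted between the hairpins in number. Of 31 tested, 6 fell and 2 rose with shHIRA I (median -0.14), and 20 fell and 1 rose in shHIRA II-labelled libraries (median -0.71). Between control and parental cells 1 fell and 3 rose (12.9% called, against 3.62% of all tested genes), with a median of 0.25. The controls thus stood somewhat above parental cells in this list. In the direct comparison of the hairpins 13 were lower and 0 higher in shHIRA II-labelled libraries (41.9% called), against 21% of all tested genes, 1681 lower and 1164 higher of 13541. The shHIRA I count of 8 called was 4 without shLuciferase replicate 3, shScramble replicate 3 or shHIRA I replicate 1, and 5 without shLuciferase replicate 4 or shScramble replicate 4. It was 3 in both limma fits, 4 in a fit of the compared groups only and 5 without the filter on low counts.

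Mcoln1, whose promoter is shown above, was 73.9 to 95.5 CPM in the controls. It was 68.2, 86.5, 64.2 and 56.3 CPM with shHIRA I and 45.7, 53.9, 55.4 and 51.8 CPM in shHIRA II-labelled libraries, the latter below all controls and all shHIRA I libraries. Its log2 fold changes were -0.33 (SE 0.11, adjusted p = 0.0405) and -0.75 (SE 0.11, adjusted p = 8.63e-05). Parental cells, at 59.6 to 67.7 CPM, also lay below all controls. Lamp1, of the lysosomal membrane, fell with both (-0.54 and -0.93), as did Psap, the saposin precursor (-1.08 and -0.79). In control against parental cells Lamp1 rose (0.53, adjusted p = 0.0283) and Psap was not called (0.12). Arsb, a sulfatase, and Asah1, acid ceramidase, fell in shHIRA II-labelled libraries (-1.26 and -1.02) and were at -0.07 and -0.20 with shHIRA I. Naglu, another lysosomal enzyme gene, fell with shHIRA I (-0.72) and was at -0.23 in shHIRA II-labelled libraries.

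The vacuolar proton pump, which acidifies the lysosome, had 7 of 20 genes fall and 1 rise with shHIRA I (median -0.32) and 11 fall and 2 rise in shHIRA II-labelled libraries (median -0.38). Between control and parental cells 0 fell and 2 rose (10.0% called, against 3.62% of all tested genes), with a median of 0.30. Atp6v1g1 was lower with shHIRA I (-1.73, SE 0.16) than in shHIRA II-labelled libraries (-0.56, SE 0.15), with adjusted p = 0.000204 for the difference. Atp6v0a1 was at -0.32 and -0.92, and Atp6v1h, at 0.12 and 0.70, rose in shHIRA II-labelled libraries. The shHIRA I count of 8 called dropped to 4 or 5 on leaving out parental replicate 4, shLuciferase replicate 3 or 4, shScramble replicate 2, 3 or 4, or shHIRA I replicate 1, 2 or 4.

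Autophagy genes changed in both directions. Of 23 tested, Tfeb among them, 2 fell and 2 rose with shHIRA I (median -0.14), and 5 fell and 4 rose in shHIRA II-labelled libraries (median -0.12). Sqstm1, the cargo receptor p62, rose in shHIRA II-labelled libraries (1.04, SE 0.18, adjusted p = 0.000344) and not detectably with shHIRA I (-0.06, SE 0.19, adjusted p = 0.869). Atg5, of the LC3 conjugation machinery, rose with both (0.66 and 0.97), and Optn, another cargo receptor, fell with both (-0.47 and -0.80). Calcoco2 rose by 2.21 and 2.04 with SEs of 0.56.

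In the nutrient-sensing arm that holds TFEB and TFE3 in the cytoplasm, 3 of 27 genes fell and 1 rose with shHIRA I, and 6 fell and 3 rose in shHIRA II-labelled libraries (medians -0.11 and -0.10). Rragd, a Rag GTPase gene and CLEAR target, fell with both (-0.63, adjusted p = 0.0198, and -0.85, adjusted p = 0.00202), and Rragc fell in shHIRA II-labelled libraries (-0.50, adjusted p = 0.00202). Rragb rose with both (1.18 and 0.90). Flcn, the folliculin gene, was not called (0.38, adjusted p = 0.0797, and 0.16, adjusted p = 0.439). The genes of its partners Fnip1 and Fnip2 fell in shHIRA II-labelled libraries (-0.79 and -0.69) and were not called with shHIRA I (0.07 and -0.27). Of the leucine and stress sensors, Sesn1 fell in shHIRA II-labelled libraries (-1.47) and Sesn3 with shHIRA I (-1.18). The shHIRA I count of 4 called was 7 without shHIRA I replicate 3.

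Kinases, phosphatases and 14-3-3 anchors of the MiT/TFE proteins had 2 of 21 fall and 4 rise with shHIRA I, and 6 fall and 4 rise in shHIRA II-labelled libraries, with medians of 0.14 and 0.08. Ywhag, a 14-3-3 gene, rose with both (0.52 and 0.86), and Ywhab, another, fell with shHIRA I (-0.63) and was at 0.18 in shHIRA II-labelled libraries. Ppp3cb, a catalytic subunit of calcineurin, the phosphatase of TFEB, fell in shHIRA II-labelled libraries (-0.70, adjusted p = 4.84e-05) and was at 0.14 with shHIRA I. Without shHIRA I replicate 3, 3 in place of 6 were called with that hairpin; without shHIRA II replicate 1, 5 in place of 10 were called with the other.

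Other bHLH-zipper factors, which bind the same E-box, had 1 of 18 fall with shHIRA I and 7 fall in shHIRA II-labelled libraries, with 0 rising in either. Myc fell with both (-0.63 and -0.48). Mycn fell in shHIRA II-labelled libraries (-1.72, SE 0.19, adjusted p = 6.42e-06) and was at 0.44 with shHIRA I (SE 0.17, adjusted p = 0.0818); the hairpins differed (adjusted p = 5.37e-06). Mxd1 and Mxi1, antagonists of MYC, fell in shHIRA II-labelled libraries (-1.36 and -1.93). The shHIRA I count of 1 was 3 without shHIRA I replicate 3 or 4, and 2 without its replicate 1 or 2, shLuciferase replicate 1 or shScramble replicate 1. Of 12 MITF coactivators and chromatin partners, Ctnnb1 fell and Lef1 rose with shHIRA I, and Ctnnb1 and Smarca2 (-0.77), a SWI/SNF ATPase gene, fell in shHIRA II-labelled libraries. The latter count of 2 ranged from 1 to 4 when single libraries were left out.

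Against a background of 19.7% of all tested genes called with shHIRA I and 32.4% in shHIRA II-labelled libraries, the share of called genes was 58.6% and 65.5% among MITF targets, 47.6% with either among upstream regulators and 40.0% and 65.0% in the proton pump. Lysosomal CLEAR genes stood at 25.8% and 67.7%, and kinases, phosphatases and anchors at 28.6% and 47.6%. Shares near the background or below it were those of autophagy genes, at 17.4% and 39.1%, and nutrient sensing, at 14.8% and 33.3%. So were those of other bHLH-zipper factors, at 5.56% and 38.9%, and coactivators, at 16.7% with either. The lists were chosen with earlier results of these data known. Shares above the background, here and for single lists above, may follow from that choice and are not separate evidence. The lists also share genes (216 entries for 211 genes), Irf4 among them.

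**Figure D5:**
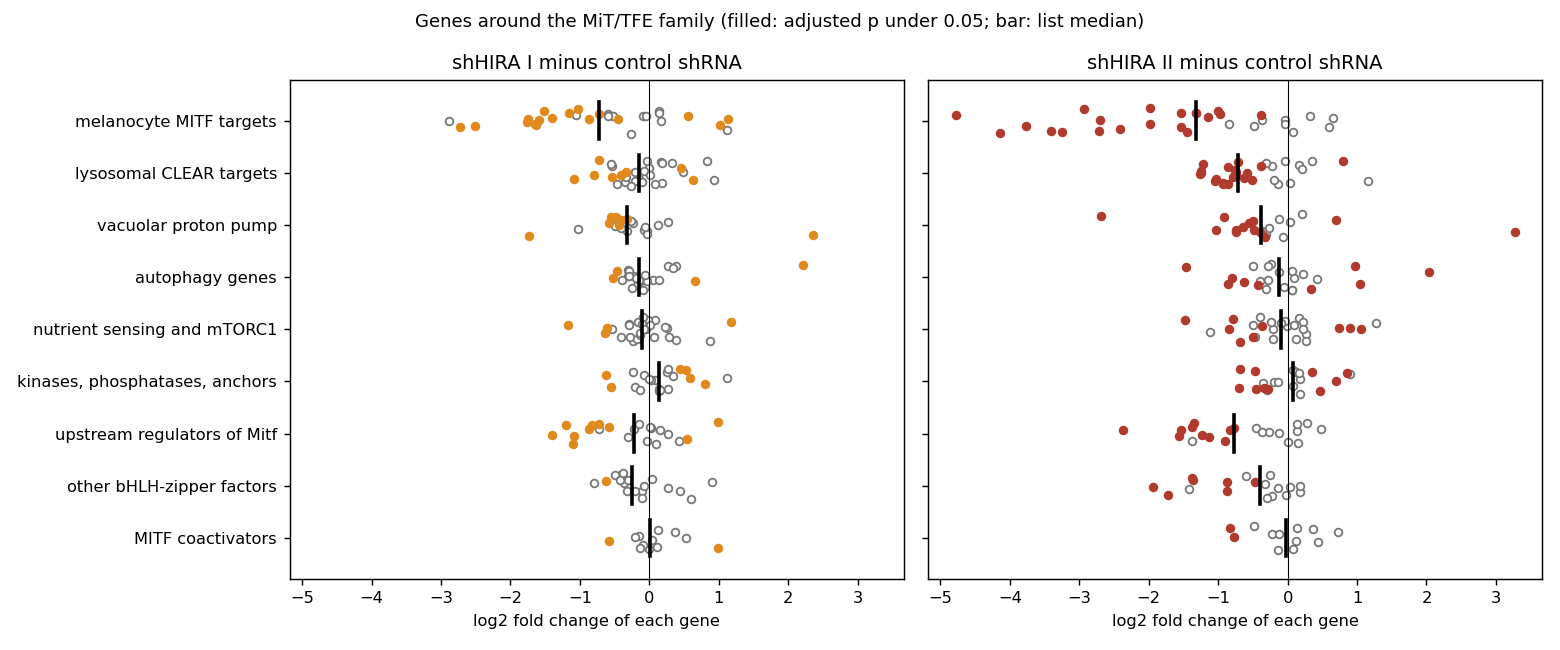
Log2 fold change of each tested gene in 9 lists around the MiT/TFE family (rows), for shHIRA I (left) and shHIRA II (right) against the control hairpins, with filled points for an adjusted p under 0.05 and a black bar at each list's median. The median of melanocyte MITF targets is -0.72 on the left and -1.32 on the right, and that of lysosomal CLEAR targets -0.14 and -0.71.

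Promoters of the listed genes were searched for the same motifs. The CLEAR core stood in 14 of 25 lysosomal genes with a promoter window (56.0%), against 6.79% of the 9704 tested genes with one. The M-box core stood in 9 of 27 MITF targets (33.3%), against 2.71%. Both lists name known targets of factors that bind these motifs, so the higher shares may follow from that choice and are not separate evidence. Over all tested genes, with the lists included, 25.9% of the 263 genes with an M-box core fell in shHIRA II-labelled libraries, against 16.9% of those without, and with shHIRA I the shares were 10.6% and 8.91%. For the CLEAR core the shares that fell were 20.9% of 659 genes and 16.9% in shHIRA II-labelled libraries, and 10.3% and 8.86% with shHIRA I. Median log2 fold changes of genes with either motif lay between -0.06 and 0.04, close to those of all genes. These shares are descriptions, with no test.

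The genes whose log2 CPM followed each member most closely over the 20 libraries were listed, as a description. Pearson's r with Mitf was 0.97 for Akap2, Gnptab and Slc44a1 and 0.96 for Sspn and Ak3. For Tfe3 it was 0.88 for Plcb3 and Trim8, 0.86 for Rab43 and Zc3h12a and 0.82 for Gprasp1. For Tfeb it was 0.81 for Gtf2h4, 0.78 for Akt1 and Rps6kb2, 0.77 for Eif4g1 and 0.76 for Gnai2. The libraries share depth and group differences, which enter these values. No member was among another's most alike genes, the r between Mitf and Tfe3 being -0.38 and that between Tfe3 and Tfeb -0.01.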

How the data were processed

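Poly(A) RNA of 20 melb-a libraries, 4 in each of 5 groups, was sequenced from stranded libraries, per the labels' protocols. The tools named in the submitters' processing notes are bcl2fastq, kallisto and edgeR, with build mm10; no source used here gives their versions or the annotation. The authors deposited estimated counts and TPM per gene. Each deposited count equalled TPM times 1 length per gene and 1 factor per library (largest log2 deviation 1.32e-09 over 10288 genes), so isoform shifts do not enter it. By elimination, columns headed as control with no hairpin name stand for parental cells, and shHIRA columns without a numeral for shHIRA I. The sources give no strand setting of the counting.

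Estimated counts were rounded to whole numbers. edgeR 4.0.16 (R 4.3.3) gave TMM scaling, a filter on low counts by group and quasi-likelihood F tests in a group-means model over all 20 libraries. The intervals shown are at 95%. Alternatives were RLE factors, library totals alone, no or a stricter filter, DESeq2 1.42.0, limma 3.58.1 on log2(TPM + 1) or log2(TPM + 0.1), fits of the compared groups only, a replicate block, the mitochondrial mRNA share as a covariate, and leaving out libraries. On simulated data the test of shHIRA I against the controls called 66 of 100 changes of log2 size 1. It called 12 of 100 changes of log2 size 0.585, and 3 unchanged genes. Most changes of the smaller size were thus missed there. Only 100 genes of each size were changed among 13325, far fewer than were called in the data. The adjustment is stricter when fewer genes change, so these counts may understate what the test finds in the data. The lack of a call still does not show a lack of change. Depth of 15.0 to 20.7 M counts limits low genes such as Tfec, and the count floor given for Tfec covers counting error only. The 95% intervals of fold changes come from the fit and include the spread between replicate cultures. No pair of replicates was alike within counting noise (smallest chi-square per degree of freedom 12.6).

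Members and gene lists were chosen with earlier results of these data known. Genes named were, per list and hairpin, up to 3 called genes of smallest adjusted p, listed genes of a named role in regulating or reporting the family, and the 5 genes most like each member. Also named were the 3 MITF targets that rose with shHIRA I, and Tyrp1 and Mlana. All 211 listed genes had a row, some under an older symbol. Promoter sequences are from RefSeq (GRCm38.p6) and positions from GENCODE M21.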

Additional observations from a re-analysis of the deposited data

Results flagged for a closer look

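The response of Mitf differed between the hairpins, with a log2 fold change of -1.37 for shHIRA II-labelled libraries against shHIRA I. That of Tfe3 differed in the other direction, at 0.65. Both differences were known when the genes were chosen, so their listing here is not separate evidence. In Tfeb, shLuciferase replicate 2 stood apart at 34.9 CPM from the other 3 libraries of its group, at 22.6 to 23.4 CPM. Of 15 groups of 4 values examined in this way chance alone marks about 1 in 20.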

How the results depend on the processing

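Mitf in shHIRA II-labelled libraries kept its call against the controls in all 31 alternatives (log2 fold change -2.06 to -1.45). With shHIRA I Mitf was called by DESeq2 (-0.53) and in 1 omission of a single library; over such omissions it ran from -0.78 to -0.33. Tfe3 with shHIRA I lost its call under library totals alone (-0.35), no filter (-0.45), the stricter filter (-0.39), limma on log2(TPM + 1) (-0.29) and log2(TPM + 0.1) (-0.31), the compared groups only (-0.42) and given the mitochondrial covariate (-0.37) or with its 2 lowest libraries left out (-0.38); over single omissions it ran from -0.52 to -0.37. The Tfe3 difference between hairpins was 0.58 and 0.62 in limma and 0.65 in the compared groups only. Mitf with shHIRA I against parental cells lost its call under library totals alone (-0.68), limma (-0.70 and -0.71) and the compared groups only (-0.78), and ran from -1.06 to -0.60 over omissions. Tfe3 in shHIRA II-labelled libraries against parental cells ran from 0.44 to 0.60.

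Values that were not called and changed sign were as follows. Under the mitochondrial covariate, Tfeb against the controls was -0.0534 with shHIRA I and -0.27 in shHIRA II-labelled libraries, -0.19 in the latter against parental cells, and 0.0854 for control against parental cells. Without the 2 libraries of lowest mitochondrial share, Tfeb was 0.19 between hairpins and -0.0596 for shHIRA I against parental cells. In limma, Tfeb in control against parental cells was 0.0198 and 0.0215, and Tfe3 with shHIRA I against parental cells was 0.0447 and 0.0464. Over omissions Tfeb ran from -0.29 to 0.20 between hairpins, from -0.20 to 0.0555 for control against parental cells and from -0.0621 to 0.44 for shHIRA I against parental cells. Tfe3 between the control hairpins ran from -0.15 to 0.0415. The cause was not tested.

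Genes called in the compared groups only numbered 1777 with shHIRA I (2671 in the shared fit), 1088 between hairpins (2845), 891 for shHIRA I against parental cells (2270), 880 for control against parental cells (490) and 1 between control hairpins (0). With the mitochondrial covariate 2767 were called in shHIRA II-labelled libraries (4394) and 798 for control against parental cells; the latter count was 844 without the 2 libraries of lowest share, 868 in DESeq2 and 316 in limma on log2(TPM + 1). DESeq2 called 4 between control hairpins. Over omissions, counts ran from 1997 to 4430 between hairpins, 214 to 791 for control against parental cells and 0 to 1 between control hairpins. The highest of these, 4430 and 791, came without shHIRA I replicate 3.

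Counts of called list genes also moved by over 1.5 times beyond single omissions. With shHIRA I, CLEAR genes (8) were 3 in limma, 4 in the compared groups only and 5 without a filter; proton pump genes (8) were 4 under library totals alone or the stricter filter and 3 in the compared groups only; autophagy genes (4) were 2 and coactivators (2) 1 in limma; kinases and anchors (6) were 3 in the compared groups only or under the mitochondrial covariate; and other bHLH-zipper genes (1) were 3 under library totals alone, DESeq2, the block or the covariate. Without the 2 libraries of lowest mitochondrial share, nutrient-sensing genes (4) were 8, kinases and anchors (6) 3 and other bHLH-zipper genes (1) 3. In shHIRA II-labelled libraries, nutrient-sensing genes (9) were 4 under the covariate, kinases and anchors (10) 6 without a filter, and coactivators (2) 1 in limma and 4 in the compared groups only.

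Library totals alone moved the median log2 fold change of all genes to 0.12 with shHIRA I and 0.15 in shHIRA II-labelled libraries, from 0.05 and 0.02; falls then numbered 942 against 1851 rises and 1716 against 3100, in place of 1201 against 1470 and 2262 against 2132.

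Correlations of same-numbered replicates ran from -0.31 to 0.42. As not every one was above 0.1 and the labels tie no number to a shared batch, the numbers were not taken as pairs, although 13 of 20 libraries were most like their own number, a hint from the data and not from the design. With a replicate block Mitf with shHIRA I was at -0.56 (adjusted p = 0.0553, edgeR), Tfe3 with shHIRA I at -0.41 (0.0492) and Tfe3 between hairpins at 0.64; no call on a member changed, and 2958 and 4806 genes were called with the hairpins.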
